A study of Homo sapiens with 4 samples.

Results

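The NOTCH genes described here are the receptors NOTCH1, NOTCH2 and NOTCH3, the ligands JAG1, JAG2, DLL1 and DLL3, the glycosyltransferase LFNG, and the target genes HES1 and HEY1. They were taken from the array by gene symbol. These 10 genes, of 17559 with a symbol on the array, were covered by 12 of the 24460 gene probes, 3 of them for NOTCH1 and 1 for each other gene. All 10 lay above background on all 4 arrays and were among the 16592 genes tested.

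The samples were Panc1, an established human pancreatic cancer cell line, grown without gemcitabine (1 array), and its gemcitabine-resistant derivatives GR1, GR3 and GR4 (1 array each). Gemcitabine is a deoxycytidine analogue used against pancreatic cancer. According to the labels, resistance was selected over 2 months with gemcitabine rising from 2 to 30 ng/ml, and the clones were picked by limiting dilution from the adapted cells. All cells had the same medium with 10% serum, and the labels do not say whether gemcitabine was present at harvest. The treatment text numbers the clones GR1, GR2 and GR3, and the numbers of the sample titles are used here. Each clone is thus 1 line from 1 selection, so p-values measure the spread among these clones, and the parental line has no replicate.

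NOTCH receptors are bound by ligands of the Jagged and Delta families on a neighbouring cell. An ADAM protease and then the gamma-secretase complex cut the receptor, and its intracellular part enters the nucleus, joins the DNA-binding protein RBPJ and a Mastermind coactivator, and switches on HES and HEY genes, which encode basic helix-loop-helix repressors. Ligand made by the same cell as the receptor can inhibit it instead. In the developing pancreas, NOTCH acting through HES1 holds progenitors back from endocrine and acinar fates, and the pathway is active again in metaplastic ducts and pancreatic tumours.

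The HES1 promoter is printed because it is the best known point at which an activated receptor acts, and those of JAG1 and JAG2 because these related ligands behaved differently in the clones. The sequences are from RefSeq, build GRCh38.p14, run 5′ to 3′ on the gene's strand, and span 250 bases before to 50 bases after the first base of the gene. The RBPJ core TGGGAA, searched on both strands, is in capitals. HES1 lies on the plus strand at chr3:194135898-194136197, JAG1 on the minus strand at chr20:10673950-10674249 and JAG2 on the minus strand at chr14:105168727-105169026.
HES1: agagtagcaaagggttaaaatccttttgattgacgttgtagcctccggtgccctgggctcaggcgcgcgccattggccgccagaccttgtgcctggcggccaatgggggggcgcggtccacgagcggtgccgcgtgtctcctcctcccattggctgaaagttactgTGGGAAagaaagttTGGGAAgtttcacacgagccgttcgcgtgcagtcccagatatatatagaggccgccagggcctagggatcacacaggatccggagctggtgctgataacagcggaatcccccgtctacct
JAG1: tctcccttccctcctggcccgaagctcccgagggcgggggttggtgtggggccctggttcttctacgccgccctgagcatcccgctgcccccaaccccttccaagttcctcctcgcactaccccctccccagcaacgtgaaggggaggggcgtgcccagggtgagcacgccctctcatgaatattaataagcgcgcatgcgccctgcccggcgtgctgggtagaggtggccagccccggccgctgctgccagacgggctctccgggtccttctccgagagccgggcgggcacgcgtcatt
JAG2: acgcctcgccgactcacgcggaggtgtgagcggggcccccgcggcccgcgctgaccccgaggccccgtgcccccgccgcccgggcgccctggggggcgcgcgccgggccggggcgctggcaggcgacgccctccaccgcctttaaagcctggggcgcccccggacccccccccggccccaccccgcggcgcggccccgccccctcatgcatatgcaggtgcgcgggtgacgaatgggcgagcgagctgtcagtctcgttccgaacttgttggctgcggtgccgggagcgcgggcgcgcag

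Of the 10 genes, 7 had a promoter in the sequence table, with 2 for LFNG. The HES1 promoter held TGGGAA at bases -84 to -79 and -70 to -65, counted with the first base of the gene as 1 and the base before it as -1. Both copies run in the direction of the gene, with 8 bases between them, and the upstream one is part of the longer site GTGGGAA. Only exact matches were searched, so RBPJ sites of any other sequence are not marked. The copies are matches of letters, and whether RBPJ binds them, alone or as a pair, was not tested. At least 2 copies of TGGGAA occur in 3.80% of the 35116 promoters of that length, at least 1 in 24.03%, and GTGGGAA in 6.25%. The same promoter held 4 copies of the N-box CACNAG, the site through which HES1 protein represses its own gene in mouse, none of which overlaps a TGGGAA; at least 4 copies occur in 0.293% of promoters and at least 1 in 38.03%. TGGGAA was also present once in each LFNG promoter, and these letters were not in the windows of NOTCH1, NOTCH2, NOTCH3, JAG1 or JAG2. The files do not place the array's probes within the transcripts.

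The comparison asked how this pathway differed between the resistant clones and the line they came from. The ligands JAG1 and DLL3 rose in the clones, 5.20-fold and 2.99-fold. DLL1 was 2.19-fold higher and the targets HES1 and HEY1 were 2.77-fold and 2.00-fold lower, without passing the test. The receptors NOTCH1, NOTCH2 and NOTCH3, the ligand JAG2 and LFNG had log2 differences between -0.26 and 0.12, and none of them passed. By limma with Benjamini-Hochberg adjustment over all probes tested, 2 of the 10 genes passed at a threshold of 0.05, against 4.06% of all genes tested. Both were higher in the clones (2.17% of all genes were called higher and 1.89% lower). No probe on the array had a limma adjusted p below 0.0442, so every call lay between that value and 0.05. JAG1, at 0.0481, and HEY1, at 0.0557, were thus close to each other on either side of the threshold. Of the 10, 3 were at least 2-fold from the parental array in all 3 clones (JAG1 and DLL3 higher, HES1 lower), against 7.26% of all genes (3.66% higher, 3.6% lower). All 3 clones lay above the parental array for JAG1, DLL1 and DLL3 and below it for NOTCH3, JAG2, HES1 and HEY1, against 35.3% and 37.8% of all genes. The median log2 difference was -0.10 over the 10 genes and -0.02 over all genes tested. Because the 10 genes were chosen with earlier results of these data known, setting them against all genes is not an independent comparison.

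**Figure D1:**
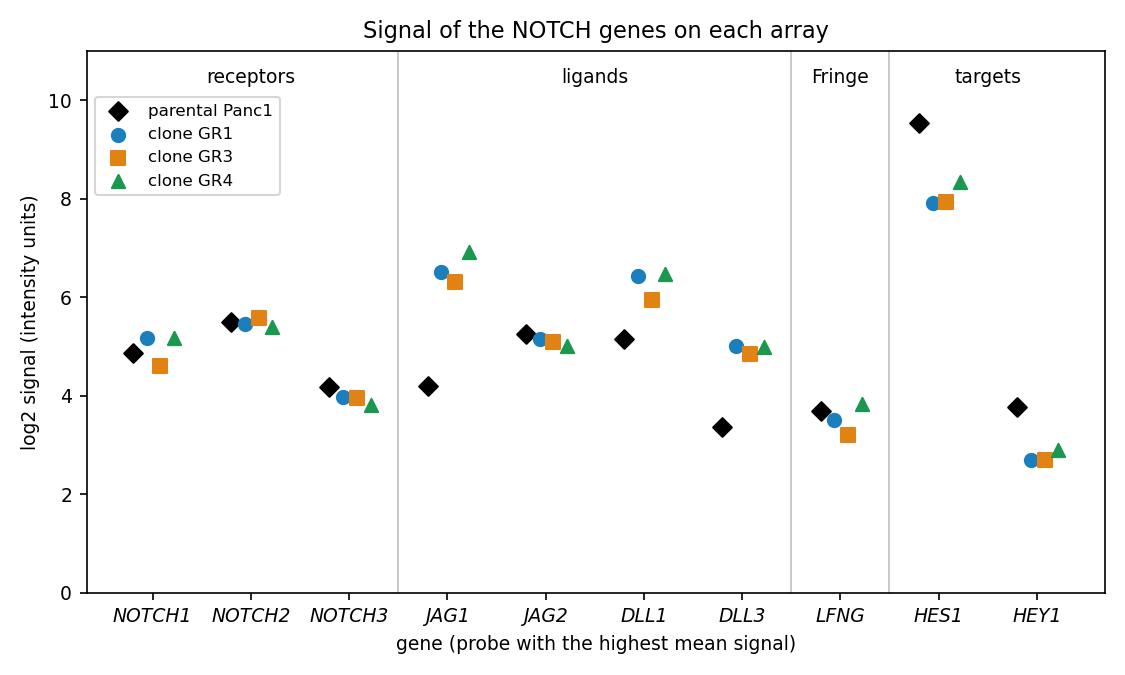
Log2 signal (intensity units after subtraction of the blank mean and quantile normalization) of the 10 NOTCH genes, with 1 point per array, grouped by role. The 3 clones lie above the parental array for JAG1, DLL1 and DLL3 and below it for NOTCH3, JAG2, HES1 and HEY1. Of all genes tested, 35.3% lie above it in all 3 clones and 37.8% below it. Levels of different genes come from different probes and are not comparable.

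Among the ligands, JAG1, a Jagged ligand that activates receptors on adjacent cells, had a log2 signal of 4.20 in parental cells and 6.51, 6.31 and 6.91 in GR1, GR3 and GR4. Before normalization, the net signals in that order were 18.0, 98.1, 81.2 and 119 intensity units over the blank spots, where the limit of detection lay between 1.18 and 1.36 units. Every clone was thus well above the parental array, by 4.96-fold in GR1, 4.33-fold in GR3 and 6.56-fold in GR4. The log2 difference was 2.38 ± 0.28 (SE, 3 clones against 1 parental array), with a 95% interval from 1.57 to 3.19 and an adjusted p of 0.0481, and 1.09% of genes differed by more. JAG1 had the highest level in GR4, and with 1 array per clone the order of the clones cannot be set against a spread.

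DLL3, a divergent Delta ligand that stays mostly inside the cell and is known as an inhibitor of NOTCH in the cell that makes it, had a log2 signal of 3.37 in parental cells and 5.00, 4.84 and 5.00 in GR1, GR3 and GR4. The clones lay close together, with a SD of 0.09 (n = 3), and did not overlap the parental value. The log2 difference was 1.58 ± 0.13 (adjusted p = 0.0442, 95% interval 1.21 to 1.96). Its parental spot was dim, 10.2 units net of the blank spots, against 29.3 to 33.8 units in the clones.

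DLL1, a Delta ligand that activates receptors on adjacent cells, had a log2 signal of 5.15 in parental cells and 6.43, 5.94 and 6.46 in GR1, GR3 and GR4. All 3 clones were above the parental array, GR3 by 1.73-fold and the others by 2.44-fold and 2.49-fold. The log2 difference of 1.13 ± 0.27 did not pass (adjusted p = 0.0989, 95% interval 0.34 to 1.92).

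JAG2, the other Jagged ligand, gave 5.26 in parental cells and 5.14, 5.09 and 5.01 in GR1, GR3 and GR4. The clones sat just below the parental value, GR4 furthest at a difference of -0.25, and the log2 difference was -0.18 ± 0.12 (adjusted p = 0.386, 95% interval -0.52 to 0.16). The smallest JAG1 difference of any clone was 2.11, and JAG1 was not tested against JAG2. Ligands of the wider list that are not among the 10 genes did not pass either: DLL4, the endothelial Delta ligand, had -0.35 ± 0.14, and DLK2 and DLK1, atypical ligands, had -0.46 ± 0.16 and -0.04 ± 0.13.

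In a bulk sample, a change in the share of cells that express a gene and one in RNA per cell cannot be told apart. Leaving out any 1 clone kept JAG1 between 2.19 and 2.52 and DLL3 between 1.54 and 1.65 but ended both calls (adjusted p between 0.0768 and 0.211). Normexp correction that takes the scanner's second column as background (the 2-column normexp model) brought JAG1 to 0.32, DLL3 to 0.23 and DLL1 to 0.24, with limma's adjusted p at 0.718, 0.317 and 0.676; normexp on blank-subtracted signals gave 1.08, 0.42 and 0.58, with adjusted p of 0.0483, 0.0260 and 0.109.

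Among the targets, HES1, a repressor and the classical target of activated NOTCH, had a log2 signal of 9.53 in parental cells and 7.90, 7.93 and 8.34 in GR1, GR3 and GR4. In units net of the blank spots, these were 626, 264, 249 and 326. All 3 clones were lower, GR1 by 3.08-fold, GR3 by 3.03-fold and GR4 by 2.27-fold. The log2 difference of -1.47 ± 0.24 did not pass (adjusted p = 0.0601), although its 95% interval, -2.15 to -0.79, lay below 0 for the gene taken alone.

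HEY1, a related repressor that can pair with HES1, had a log2 signal of 3.77 in parental cells and 2.70, 2.69 and 2.91 in GR1, GR3 and GR4. The clones lay close together, with a SD of 0.12 (n = 3), and were all lower, with a log2 difference of -1.003 ± 0.15 (adjusted p = 0.0557, 95% interval -1.43 to -0.57). The spots were dim, with net signals of 13.5 units in parental cells and 6.71 to 6.88 units in the clones. Under the 2-column normexp model HEY1 was at 0.0150 and HES1 at -0.75, and with median scaling HEY1 passed the test (adjusted p = 0.0451) and HES1 did not (-1.21, adjusted p = 0.0652). With normexp on blank-subtracted signals HES1 passed (-1.31, adjusted p = 0.0370) and HEY1 was at -0.16 (adjusted p = 0.0819).

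The other HES and HEY genes and NRARP, a target that in turn restrains NOTCH, were 9 further genes on the wider list. None of the 9 passed, and their log2 differences ran from -0.36 to 0.18, against -1.47 for HES1 and -1.003 for HEY1. HES4 had -0.31 ± 0.24, HES6 -0.35 ± 0.25, HES7 -0.36 ± 0.15, HEY2 0.18 ± 0.20 and NRARP 0.03 ± 0.14. HES5, NRARP, HEY2, HEYL and HES3 were dim, with parental log2 signals of 0.67, 1.76, 2.06, 2.43 and 2.77. The floor of 0.61 on the log2 signal left HES5 almost no room to fall, and the other dim genes more, HES3 the most. HES4, HES7, HES2 and HES6 were brighter, at 9.40, 6.75, 5.47 and 4.98.

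**Figure D2:**
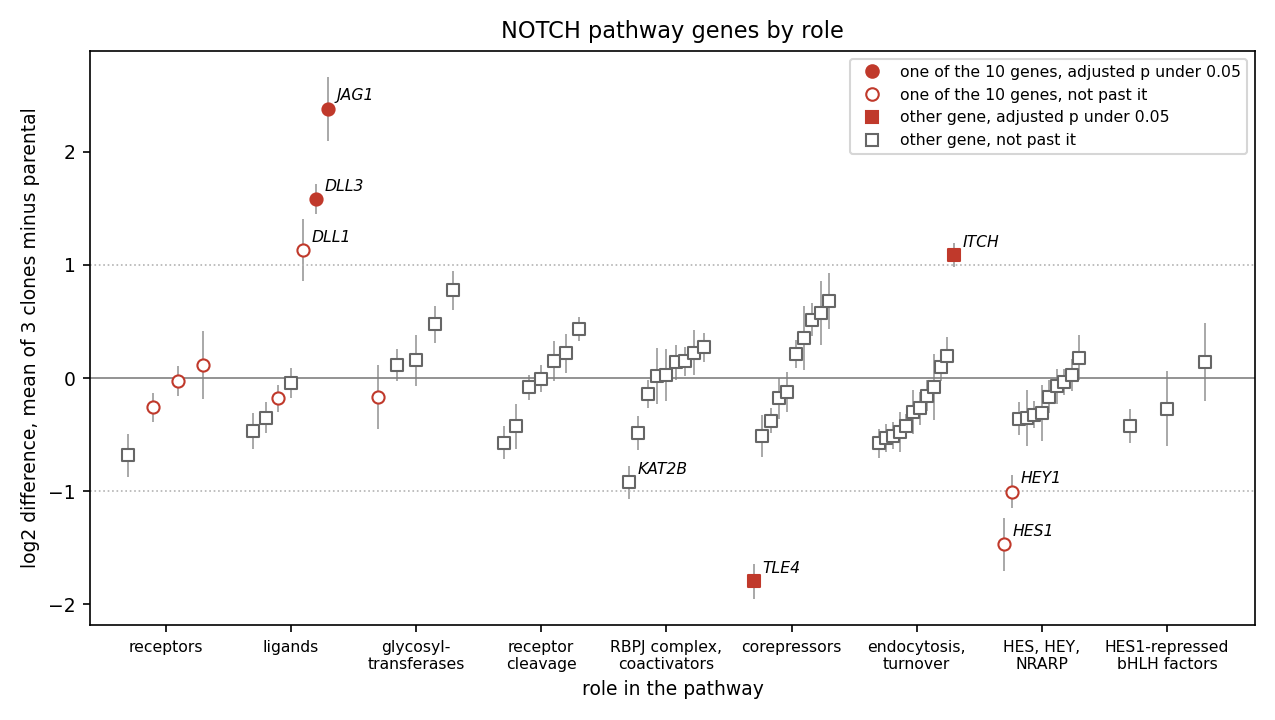
Log2 difference between the mean of the 3 clones and the parental array (vertical axis) for the 68 tested genes of the wider NOTCH list, by role, with bars for the standard error of the limma fit and dotted lines at 2-fold. JAG1, DLL3, ITCH and TLE4 (filled) passed the test, and HES1 and HEY1 lay lowest among the targets.

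Among the receptors, NOTCH2 had a log2 signal of 5.50 in parental cells and 5.45, 5.58 and 5.39 in GR1, GR3 and GR4. The clones lay on both sides of the parental array, and the log2 difference was -0.03 ± 0.13 (adjusted p = 0.913), with a 95% interval from -0.41 to 0.36. NOTCH2 has near-identical partial copies in the genome, and hybridization of their transcripts to its probe was not tested.

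NOTCH1, the receptor mutated in T-cell leukaemia, gave 4.87 in parental cells and 5.17, 4.60 and 5.18 in GR1, GR3 and GR4 by its brightest probe. GR3 was below the parental array and the others above it, and the log2 difference was 0.12 ± 0.30 (adjusted p = 0.825, 95% interval -0.76 to 0.99). Its 2 other probes had log2 differences of -0.28 ± 0.12 and 0.13 ± 0.18, so the probes differed in direction and none passed.

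NOTCH3, a receptor best known from vascular smooth muscle, gave 4.17 in parental cells and 3.97, 3.95 and 3.81 in GR1, GR3 and GR4. The clones were all lower, by a log2 difference of -0.26 ± 0.13 that did not pass (adjusted p = 0.268, 95% interval -0.62 to 0.10). NOTCH4, the receptor outside the 10 genes, was lower in all 3 clones with -0.68 ± 0.19 (adjusted p = 0.121).

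LFNG, which adds a sugar to NOTCH in the Golgi and thereby favours Delta over Jagged ligands, gave 3.68 in parental cells and 3.51, 3.21 and 3.82 in GR1, GR3 and GR4. The parental value lay within the range of the clones, and the log2 difference was -0.17 ± 0.28 (adjusted p = 0.731, 95% interval -0.99 to 0.65). Of the other sugar-transferring enzymes of the receptor, POFUT1, whose fucose is the substrate of Fringe, had 0.78 ± 0.17 (adjusted p = 0.0881) and MFNG 0.47 ± 0.16 (adjusted p = 0.162), each higher in all 3 clones without passing.

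Beyond the 10 genes, the wider NOTCH list held 66 genes, of which 58 were tested; APH1B and PTF1A were not above the limit often enough, and the other 6 were not analysed here. ITCH, a ubiquitin ligase that marks NOTCH for degradation, rose, and TLE4, a Groucho corepressor that HES proteins recruit, fell. These 2 of 58 genes (3.45%, against 4.06% of all genes) were the only ones past limma's test, and 16 of the 58 had an unadjusted p under 0.05, as did 31.9% of all genes. The median log2 difference of the 58 was -0.08.

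ITCH had a log2 signal of 5.85 in parental cells and 6.94, 6.96 and 6.92 in GR1, GR3 and GR4. The clones were nearly equal and well above the parental array, with a log2 difference of 1.09 ± 0.10 (adjusted p = 0.0444). TLE4 gave 6.62 in parental cells and 4.70, 4.96 and 4.82 in GR1, GR3 and GR4. All 3 clones were lower, with a log2 difference of -1.80 ± 0.15, or 3.47-fold (adjusted p = 0.0442). Under the 2-column normexp model TLE4 was at -0.34 and ITCH at 0.74, and neither passed (adjusted p = 0.127 and 0.151); with normexp on blank-subtracted signals they were at -0.91 and 0.68 and both passed (adjusted p = 0.0153 for each).

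Of the genes that cut the receptor, 7 were tested and none passed. NCSTN, a subunit of gamma-secretase, had -0.57 ± 0.15 (adjusted p = 0.107), PSENEN, another subunit, -0.43 ± 0.20, and the protease ADAM10 0.43 ± 0.11 (adjusted p = 0.103). NCSTN had 2 probes on the array, and with the mean of its probes it was at -0.39. RBPJ, the DNA-binding partner of the receptor, was at 8.81 (log2 signal) in parental cells, with a log2 difference of 0.02 ± 0.25 (adjusted p = 0.974). Among its coactivators, KAT2B, a histone acetyltransferase, was the furthest from 0 at -0.92 ± 0.15 (adjusted p = 0.0603), and the Mastermind genes MAML1, MAML2 and MAML3 had -0.14, -0.49 and 0.03. Of the 9 genes of that group, none passed.

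Among the corepressors, the C-terminal binding protein CTBP1 had 0.68 ± 0.25 (adjusted p = 0.178) and the deacetylase HDAC2 0.57 ± 0.28 (adjusted p = 0.272). Of the 12 genes for endocytosis and turnover, 8 were lower in all 3 clones, against 37.8% of all genes tested, and 1, ITCH, passed the test. The 8 included DTX4 and DTX1, ubiquitin ligases of the Deltex family, at -0.58 ± 0.13 (adjusted p = 0.0879) and -0.53 ± 0.12 (adjusted p = 0.0956), and NUMB, an inhibitor of NOTCH, at -0.51 ± 0.12 (adjusted p = 0.0950). Genes on one side of the parental array in all 3 clones, in either direction, made up 73.2% of all genes tested. NEUROG3, the endocrine factor that HES1 represses in the pancreas, had -0.42 ± 0.15 (adjusted p = 0.173), and ATOH1 and NEUROD1 had -0.27 ± 0.33 and 0.15 ± 0.35.

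**Figure D3:**
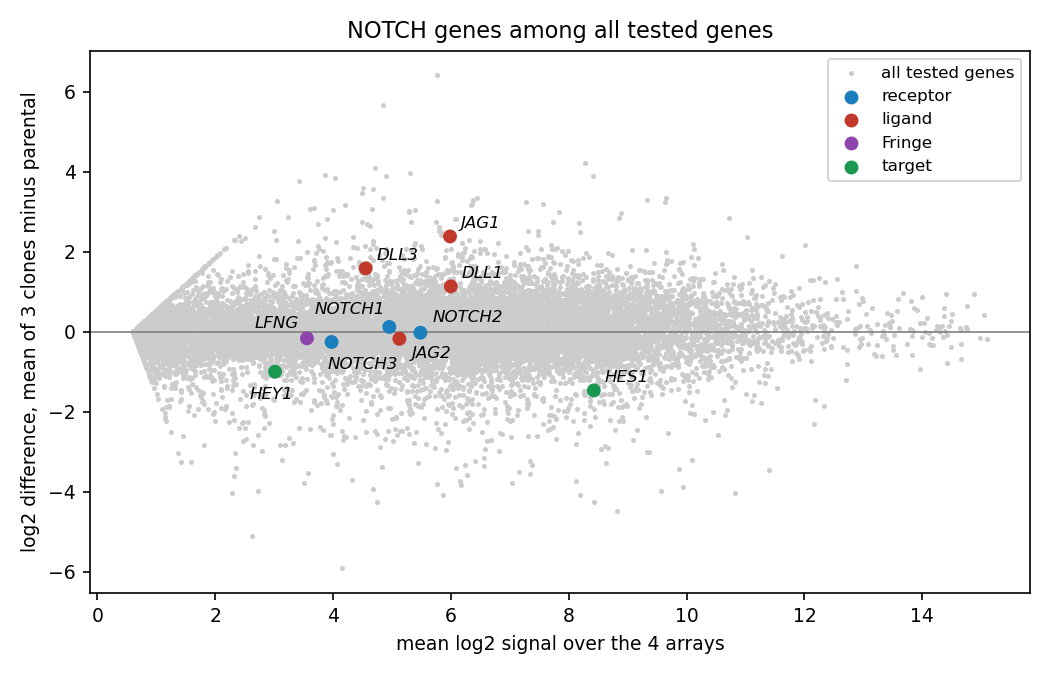
Log2 difference between the mean of the clones and the parental array against the mean log2 signal over the 4 arrays, for all 16592 tested genes (grey) and the 10 NOTCH genes (coloured by role). JAG1 lies at 2.38, with 1.09% of genes further from 0, and the receptors lie near 0; 11.1% of genes lie further from 0 than HEY1.

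GR3 had the lowest value of the 3 clones for 6 of the 10 genes, among them JAG1, DLL1 and DLL3, and over all genes tested for 39.3%. GR4 had the highest value for 6 of the 10, against 31.2% of all genes. The genes whose profile over the 4 arrays was nearest to that of JAG1, after subtraction of each gene's mean, were CHRM3, RRP9 and EVI2B, at root mean square distances of 0.07, 0.12 and 0.12 on the log2 scale. For DLL3 they were NUFIP1, UTP15 and GPT2, at distances of 0.03, 0.04 and 0.04, and for HES1 ZCCHC2, DRC10 and CDH10, at distances of 0.04, 0.04 and 0.06. Such likeness rests on 4 arrays, and CHRM3 and CDH10 were near the floor of 0.61 on one side.

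The 10 genes lie on chromosomes 1, 3, 6, 7, 8, 9, 14, 19 and 20, with NOTCH3 and DLL3 both on 19. Around each, the 5 nearest tested genes on either side were looked up by gene order alone. For JAG1 the 10 neighbours had a median log2 difference of 0.60, from -0.13 to 3.91, and none passed. The medians were -0.01 for DLL3, 0.17 over 9 neighbours for DLL1, -0.04 for HES1 and -0.26 for HEY1, with 1 neighbour past the test among these 4 sets, higher, beside HES1.

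Over the whole array, 91.5% to 93.8% of gene probes were above the detection limit on each array, 674 genes passed the test (360 higher, 314 lower) and 1205 were at least 2-fold from the parental array in all 3 clones. Higher genes made up 53.4% of the 674, 68.8% of 1020 with median scaling, 70.6% of 2121 in the deposited table and 37.0% of 146 under the 2-column normexp model. The keratins KRT7, KRT18 and KRT19 and EPCAM, which mark duct and carcinoma cells, had log2 signals of 11.9 or more on every array, and CDH1, the epithelial cadherin, 8.39 in parental cells and 8.07 to 8.11 in the clones. None of these 5 passed, and their log2 differences were 1.01 for KRT7, 0.94 for KRT18, 0.39 for EPCAM, -0.81 for KRT19 and -0.30 for CDH1. Of the markers of other cells, 15 were tested, and none passed. Their summed signals were 671 units on the parental array and 341 to 738 in the clones for fibroblast genes, 301 and 202 to 280 for leukocyte genes, 45.4 and 42.4 to 49.0 for endothelial genes, and 14.1 and 9.65 to 12.1 for acinar and endocrine genes. On the parental array LUM made up 67.6% of the fibroblast sum and CD79A 86.2% of the leukocyte sum. COL1A1, COL1A2, COL3A1 and CD3E lay there at log2 signals of 1.89, 1.24, 1.77 and 1.11, near the floor of 0.61. DCN and PDGFRB, at 6.94 and 6.41, made up 18.3% and 12.7% of the fibroblast sum. CD68, at 5.23, made up 12.5% of the leukocyte sum, and KDR, at 4.64, 54.9% of the endothelial sum. PTPRC, TEK, GCG and CPA1 did not reach the limit often enough to be tested, and the part of other cells in the NOTCH values was not tested.

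**Figure D4:**
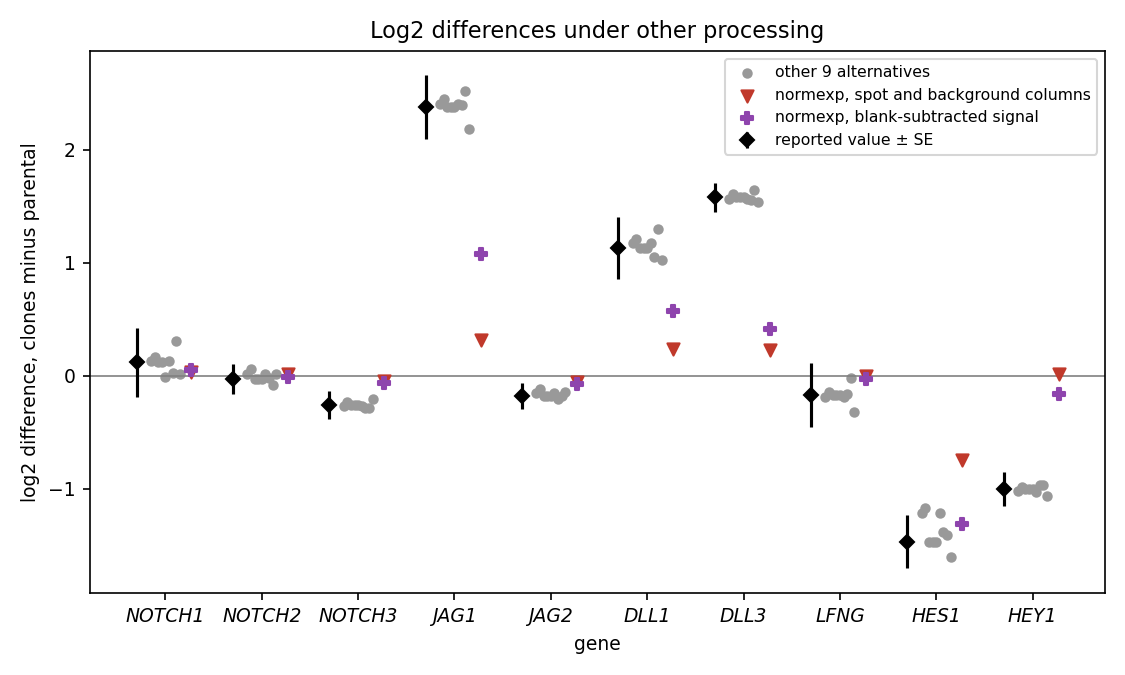
Log2 difference between clones and parental array for the 10 genes as reported (black, with standard error) and under 11 alternatives, of which the 2 with the normexp background model are coloured. JAG1 runs from 0.32 to 2.52 and HES1 from -1.60 to -0.75, and HEY1 reaches 0.0150 under the 2-column normexp model.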

How the data were processed

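Messenger RNA of 4 samples was amplified, labelled with Cy5 and hybridized to 1-colour Toray 3D-Gene arrays, per the labels' protocols. The scanner files give the median intensity of each spot and a second intensity headed as background, per the file headers. A table of processed intensity values, net of blank signal, was deposited too. It was recomputed within 0.000206 units by subtracting a trimmed blank mean (the central 90% of 2680 blank spots) and scaling each array's median to 25.

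Here the same blank mean was subtracted, probes with a faulty spot (11) were left out, arrays were quantile normalized, and values under a floor of 1.52 units were set to it, and log2 was taken. The detection limit was 2 SD over the blank mean; tested probes (22796) exceeded it in parental cells or in every clone. The brightest probe stood for a gene. Symbols came from the platform annotation, 2899 updated through RefSeq synonyms. The second column follows the spot signal (log correlation 0.932 to 0.962), and normexp on both columns with an offset of 50 was an alternative. The test was limma 3.58.1 in R 4.3.3 (lmFit, eBayes, two-sided), with 2 residual degrees of freedom. These come from the spread of the clones, which is taken to hold for the single parental array. The fit was run on simulated data in which every array had the spread of the clones. That checked only the estimated differences, not whether this spread holds for the parental array. The number of arrays limits precision.

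The 10 genes and the lists were chosen with earlier results of these data known. Named from the wider list were all genes past the test and the 10 with the largest differences (by absolute log2 difference), and for JAG1, DLL3 and HES1 the 3 nearest profiles; further pathway genes were picked with their values in view. The alternatives were other background corrections, scalings, filters and probe rules, the deposited table, and leaving out each clone.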

Additional observations from a re-analysis of the deposited data

How the results depend on the processing

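No paired analysis was possible because the parental line has 1 array. For the 10 genes under 11 alternatives each, 7 of 110 values changed sign, all of genes that had not passed. NOTCH2 was at 0.0169 under the 2-column normexp model, 0.0167 with median scaling, 0.0561 with no normalization, 0.0159 in the deposited table and 0.0160 without GR4 (-0.0813 to 0.0160 with each clone left out). NOTCH1 was at -0.0106 with the mean of its probes, and HEY1 at 0.0150 under the 2-column normexp model, which also put DTX4 at 0.25.

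The limma count for the 10 genes was 0 with normexp on both columns, with no normalization and with no filter on dim probes (1, 5 and 5 at an unadjusted p under 0.05), and 5 for probes above the limit on all 4 arrays and in the deposited table. These 5 were JAG1, DLL1 and DLL3, higher, and HES1 and HEY1, lower. In these settings 2127 and 2121 of all 15903 genes tested passed, so the share of 4.06% given above does not apply to them. For the 68 genes of the wider list the limma count was 0, 0 and 0 (15, 16 and 20 unadjusted), 8 and 8, and 10 with normexp on blank-subtracted signals. Over all genes it was 146, 208, 0 (5403 unadjusted), 2127, 2121 and 2203 in that order, and 1020 with median scaling. With any 1 clone left out, limma gave 0 calls for all 3 counts (4 to 5, 11 to 19 and 3533 to 6079 unadjusted), with 1 residual degree of freedom.

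Counts at least 2-fold fell from 3 to 0 and 1 (10 genes), from 5 to 0 and 1 (wider list) and from 1205 to 321 and 413 (all genes) with normexp on both columns and on blank-subtracted signals, the 1 being HES1. Without 1 clone they were 3 to 4, 5 to 6 and 1308 to 1768. With median scaling, with no normalization and in the deposited table, only 2 of the 10 genes, JAG1 and DLL3, were at least 2-fold. HES1 was at -1.21, -1.17 and -1.21 there and did not reach 2-fold in every clone. The offset of 50 units exceeded the parental net signal of 9 of the 10 genes and draws their differences towards 0 by construction. Among the brightest probes of the 10 genes HEY1 had the lowest net signal, 5.07 times the net detection limit at its dimmest, and a dimmer NOTCH1 probe reached 2.505 times.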
